A study of Mus musculus with 10 samples.

Results

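The circadian clock genes described here are Per1, Per2, Per3, Clock, Cry1, Cry2, Nr1d1, Nr1d2, Dbp and Tef, 10 of the 25239 gene symbols in the deposited count table. They were taken by symbol, all 10 were found, and all 10 entered the test in each comparison. RNA sequencing counts came from 10 mouse libraries, split into 4 groups. The MLTC-1 line, which derives from a mouse Leydig cell tumour, had received the solvent DMSO (n = 3) or hymeglusin (n = 3), an inhibitor of HMG-CoA synthase, with dose and duration not given in the sources used here. Primary Leydig cells, the steroid-producing cells between the seminiferous tubules, were untreated and came from testes of mice aged 2 months (n = 2) or 24 months (n = 2), with strain, isolation method and pooling of animals not given in the sources used here. The series title names impaired ketogenesis and testicular aging, and the comparisons address the effect of the inhibitor and of age. The hour of isolation is likewise not given, so for genes that oscillate over the day, age and hour cannot be told apart, and the same holds for the hour at which cultures were harvested. No label ties a replicate to its own culture or animal, and p-values therefore cover only the spread among these libraries, which could be technical.

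The clock is a loop of transcription and feedback. CLOCK pairs with BMAL1, the product of Arntl, and binds E-boxes in the genes of its own repressors, the period proteins (Per1, Per2, Per3) and the cryptochromes (Cry1, Cry2). A second loop is formed by REV-ERBα and REV-ERBβ (Nr1d1 and Nr1d2), which repress Arntl through sites at which RORα (Rora) activates. Dbp, Tef and Hlf encode activators of D-box sites, and Nfil3 encodes a repressor of the same sites.

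Libraries held 17407456 to 34787330 counts, and the lowest count of any member in any library was 46. The 10 members together took 0.0783 to 0.0860% of the counts in the 6 MLTC-1 libraries, 0.0604 and 0.0613% in 2-month cells, and 0.0243 and 0.0381% in 24-month cells. Both the 24-month and the MLTC-1 libraries differed from the 2-month libraries by transcript length. Against the mean of the 2-month libraries, genes in the shortest of 10 length classes had a median log2 ratio of 1.71 in 24-month replicate 1 and 1.0 in replicate 2, and genes in the longest class had -1.70 and -1.10. The 2-month libraries lay between -0.04 and 0.04 on the same measure. The 6 MLTC-1 libraries went the other way, with -1.74 to -1.63 in the shortest class and 0.16 to 0.33 in the longest. None of the 8 Leydig markers was at 0 in any library, and their summed level ran from 6630 to 26100 CPM, a count adjusted for library size, here with TMM factors.

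Promoter sequence is shown for 5 members, chosen because their stretch held a match to one of the clock's own binding motifs. RefSeq (GRCm38.p6) promoters, 250 bases before to 50 after a start site, matched 9 of 10 members with 13 start sites. Both strands were searched for the E-box CACGTG, the variant E'-box CACGTT, the D-box TTATGTAA or TTACGTAA, the ROR half-site TAGGTCA or TGGGTCA and the cAMP response element TGACGTCA. The lines give the 250 bases before the start, 5′ to 3′ on the gene's strand, with any match in capitals. The Per3 stretch is chr4:151044666-151044915 (minus strand), that of Cry1 chr10:85185055-85185304 (minus strand), that of Nr1d1 chr11:98775378-98775627 (minus strand), that of Per1 at its first listed start chr11:69098699-69098948 (plus strand) and that of Tef at its first listed start chr15:81802423-81802672 (plus strand).
Per1: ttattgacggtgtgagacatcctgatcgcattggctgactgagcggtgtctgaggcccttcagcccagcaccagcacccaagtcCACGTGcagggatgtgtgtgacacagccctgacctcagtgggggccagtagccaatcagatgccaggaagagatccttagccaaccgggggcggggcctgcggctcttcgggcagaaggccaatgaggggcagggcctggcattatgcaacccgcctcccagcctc
Cry1: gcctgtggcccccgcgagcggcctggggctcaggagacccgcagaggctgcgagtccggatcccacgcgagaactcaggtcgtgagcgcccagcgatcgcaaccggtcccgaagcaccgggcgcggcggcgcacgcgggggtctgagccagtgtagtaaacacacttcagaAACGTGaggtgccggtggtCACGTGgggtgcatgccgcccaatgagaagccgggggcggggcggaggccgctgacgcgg
Tef: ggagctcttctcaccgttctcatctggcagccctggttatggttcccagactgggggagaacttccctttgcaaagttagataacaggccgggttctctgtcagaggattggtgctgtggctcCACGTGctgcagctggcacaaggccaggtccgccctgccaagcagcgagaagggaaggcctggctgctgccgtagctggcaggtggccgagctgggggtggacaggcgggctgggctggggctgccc
Per3: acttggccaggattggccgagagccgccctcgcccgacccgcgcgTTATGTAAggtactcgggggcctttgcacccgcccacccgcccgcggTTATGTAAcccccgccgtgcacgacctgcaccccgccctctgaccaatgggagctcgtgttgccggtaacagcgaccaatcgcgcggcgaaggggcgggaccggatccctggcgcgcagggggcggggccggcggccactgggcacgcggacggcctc
Nr1d1: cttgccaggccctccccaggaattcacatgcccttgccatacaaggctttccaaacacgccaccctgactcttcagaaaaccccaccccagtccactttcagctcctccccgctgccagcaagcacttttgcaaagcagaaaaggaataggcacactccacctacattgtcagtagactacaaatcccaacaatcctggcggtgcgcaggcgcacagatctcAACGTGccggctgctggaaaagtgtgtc

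Per1, Cry1 and Tef carried an E-box, in 4 of the 13 member promoters against 7.15% of all 32851 promoters searched. Cry1 also held an E'-box, as did Cry2 and Nr1d1, a motif found in 4.68% of all promoters. Per3 held 2 D-boxes, starting 205 and 158 bases before the start, and no other member held one; 1.06% of all promoters did. The ROR half-site was in none of the 13 member promoters and in 6.45% of all promoters, and was found for Arntl and Nfil3 among the other clock genes. The cAMP response element was in 0 of the 13 member promoters and in 1.79% of all promoters, and was found for Hlf. Clock (at each of its starts), Dbp, Nr1d2 and the second listed start of Per1 held none of these motifs. These are letter matches in a short window and not measured binding sites.

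**Figure D1:**
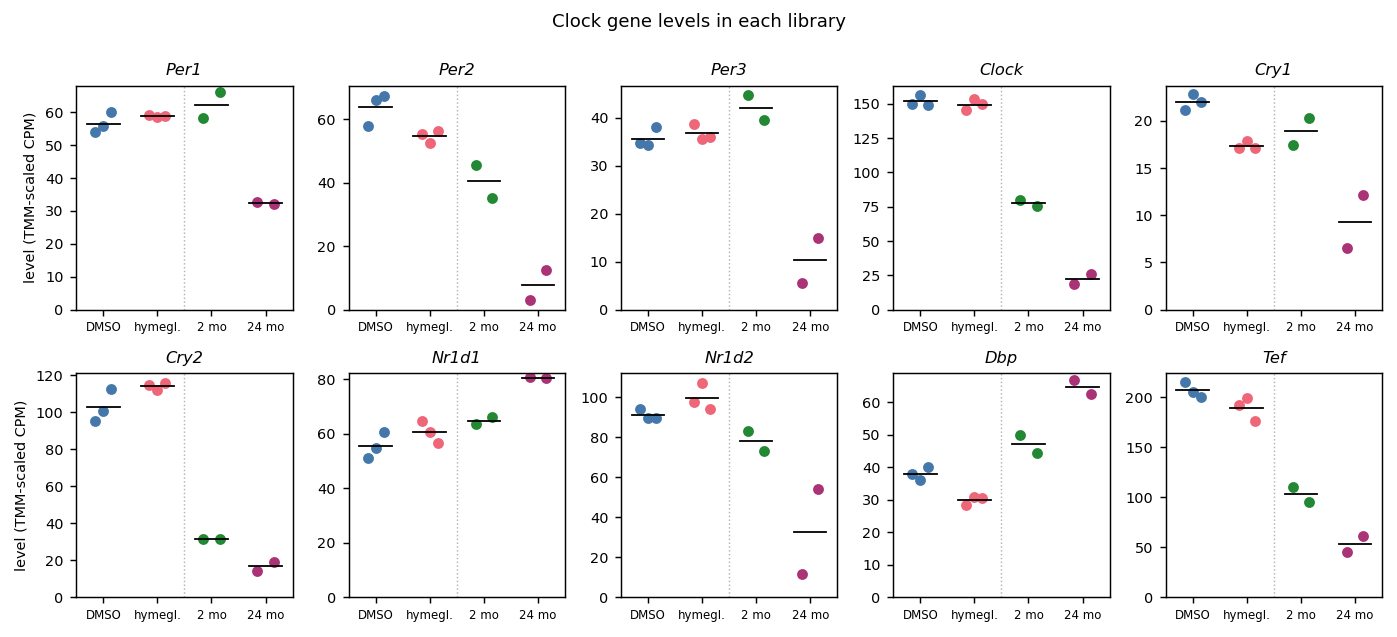
Level of each clock gene (vertical axes, TMM-scaled CPM) in every library, with points for libraries and bars for group means; MLTC-1 DMSO and hymeglusin and primary cells at 2 and 24 months run from left to right, and each source is scaled by itself. The 24-month points lie below both 2-month points for 8 genes and above them for Nr1d1 and Dbp.

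Per unit of transcript length, the order of the members differed between sources. In MLTC-1 cells with DMSO, Tef was highest at 47.1 CPM per kb, followed by Cry2 at 25.9 and Dbp at 20.6, and Per3 was lowest at 5.95. In 2-month primary cells Dbp (25.6 CPM per kb), Nr1d1 (23.8) and Tef (23.4) led, and Cry1 was lowest at 6.25. At 24 months Dbp (35.2 CPM per kb) and Nr1d1 (29.6) stood above Tef (12.1), while Per2 was lowest at 1.35. Dividing by length does not remove the differences between libraries by transcript length, and Dbp (1.84 kb) and Nr1d1 (2.72 kb) are the shortest members. With an offset for that length trend, their log2 differences with age were -0.10 and 0.25.

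On a scale common to all 10 libraries, the 24-month group was the lowest of the 4 for 8 members and the highest for Nr1d1 and Dbp. Clock, Cry1, Cry2, Tef, Per2 and Nr1d2 were highest in an MLTC-1 group, and Per1 and Per3 in 2-month cells. Several neighbours in these orders overlapped in range. They were DMSO and hymeglusin for Per2, Per3, Clock and Tef, the 2-month and hymeglusin groups for Per1, and the DMSO and 2-month groups for Cry1 and Nr1d2.

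Differences between hymeglusin and DMSO were small for the clock genes. In this comparison 5 of the 10 members passed an adjusted p of 0.05 in edgeR's quasi-likelihood test, with Benjamini-Hochberg adjustment over all 12873 genes tested; 48.3% of all genes passed, 23.8% higher and 24.5% lower. Cry1, Dbp, Per2 and Tef fell and Cry2 rose, and no change exceeded 0.34 in size on the log2 scale. The members' median log2 fold change was 0.01, as was that of all genes. For 4 members, all lower, the groups' CPM did not overlap, against 54.9% of all genes, 27.7% higher and 27.3% lower. With an offset for transcript length the same 5 members were called, against 49.3% of all genes.

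Dbp and Cry1 had the largest changes. Dbp, the D-box activator (chromosome 7, 45705100 to 45710203, plus strand, GRCm38.p6 as for all positions here), was at 37.9, 35.9 and 40.0 CPM with DMSO and 28.4, 30.8 and 30.6 CPM with hymeglusin. Every treated library lay below every control, and the log2 fold change was -0.34 (SE 0.070, adjusted p = 0.000126). Cry1, a cryptochrome and a repressor of CLOCK and BMAL1 (chromosome 10, 85131700 to 85185054, minus strand), was at 21.2, 22.9 and 22.0 CPM with DMSO and 17.1, 17.8 and 17.2 CPM with hymeglusin. Its groups were also separate, with a log2 change of -0.34 (SE 0.082, adjusted p = 0.000662).

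Among the period genes, Per2 (chromosome 1, 91415977 to 91459351, minus strand) was at 57.8, 66.1 and 67.3 CPM with DMSO and 55.3, 52.6 and 56.2 CPM with hymeglusin. The nearest libraries, DMSO replicate 1 and hymeglusin replicate 3, were close, and the log2 fold change was -0.22 (SE 0.062, adjusted p = 0.00328). Per1 (chromosome 11, 69095108 to 69109965, plus strand) had 53.9 to 60.0 CPM with DMSO and 58.7 to 59.3 CPM with hymeglusin, a log2 difference of 0.06 (SE 0.059, adjusted p = 0.422). Per3 (chromosome 4, 150997018 to 151044707, minus strand) had 34.3 to 38.0 CPM against 35.6 to 38.7 CPM, a log2 difference of 0.05 (SE 0.068, adjusted p = 0.610). Both period genes overlapped between the groups. Clock, the activator (chromosome 5, 76209868 to 76305603, minus strand), overlapped too, with 149 to 156 CPM against 145 to 153 CPM and a log2 difference of -0.02 (SE 0.049, adjusted p = 0.738).

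Tef and Cry2 passed by a small margin. Tef (chromosome 15, 81802673 to 81826863, plus strand) was at 216, 205 and 201 CPM with DMSO and 192, 199.7 and 176 CPM with hymeglusin, a log2 change of -0.13 (SE 0.051, adjusted p = 0.0317). The groups did not overlap but nearly met. Cry2, the other cryptochrome (chromosome 2, 92403646 to 92434085, minus strand), was at 95.4, 100.7 and 112.5 CPM with DMSO and 114.5, 111.7 and 115.8 CPM with hymeglusin. DMSO replicate 3 lay within the treated range, and the log2 fold change was 0.15 (SE 0.055, adjusted p = 0.0257). Leaving out DMSO replicate 1, DMSO replicate 2, hymeglusin replicate 1 or hymeglusin replicate 3 ended both calls, with adjusted p of 0.0588 to 0.225 for Tef and 0.0737 to 0.150 for Cry2.

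The REV-ERB genes did not pass. Nr1d1 (chromosome 11, 98767932 to 98775377, minus strand) had 51.0 to 60.7 CPM with DMSO and 56.4 to 64.5 CPM with hymeglusin, a log2 difference of 0.13 (SE 0.065, adjusted p = 0.107). Nr1d2 (chromosome 14, 18204056 to 18239106, minus strand) had 89.3 to 94.1 CPM against 94.0 to 107 CPM, a log2 difference of 0.13 (SE 0.055, adjusted p = 0.0525). Scaling by total counts raised the median log2 fold change of all genes to 0.11 and changed the split of the members called from 1 higher and 4 lower to 4 higher and 2 lower. Under upper quartile scaling, as under a filter at a mean of 10 CPM, 3 were higher and 3 lower. Cry1 and Dbp were called lower under each of these, while Per2 lost its call under total counts (adjusted p = 0.113). In 1 fit of all 10 libraries, whose spread includes the 24-month cells, 0 members were called by edgeR, and 1 (Dbp) had an unadjusted p under 0.05.

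**Figure D2:**
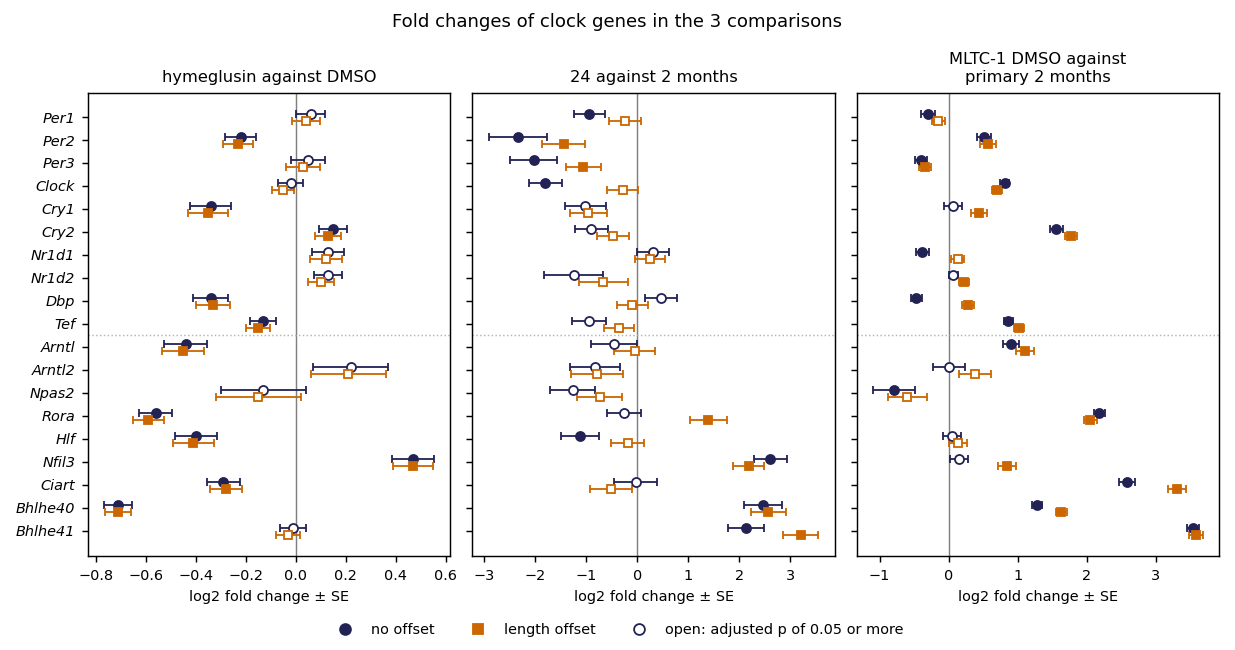
Log2 fold change (horizontal axis) of the 10 clock genes (above the dotted line) and other clock factors (below it) in the 3 comparisons, with bars of 1 standard error; circles have no offset, squares have the transcript length offset, and filled symbols passed an adjusted p of 0.05 in edgeR's quasi-likelihood test. Without the offset, hymeglusin changes of the 10 genes stay within 0.34 of 0, while Per2, Per3 and Clock reach -2.34, -2.03 and -1.80 with age.

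Several clock factors outside the 10 changed by more than any member with hymeglusin. Arntl, the partner of Clock, was at 20.4, 21.2 and 21.4 CPM with DMSO and 15.9, 14.5 and 16.2 CPM with hymeglusin, a log2 change of -0.44 (SE 0.085, adjusted p = 5.64e-05). Of the 3 activators beyond the members it was the 1 that passed; Npas2, a Clock paralog, differed by -0.13 (adjusted p = 0.542) and Arntl2 by 0.22 (adjusted p = 0.240). Among 6 secondary loop and output factors tested, 4 fell and 1 rose, against 24.5% of all genes lower and 23.8% higher. Bhlhe40, an E-box repressor, fell from 97.8, 98.5 and 103 CPM to 58.7, 61.3 and 63.2 CPM, a log2 change of -0.71 (SE 0.055, adjusted p = 4.53e-13). Rora, an activator of Arntl, fell by 0.56 on the log2 scale (adjusted p = 6.57e-09), Hlf by 0.40 (adjusted p = 0.00017) and Ciart, a repressor of CLOCK and BMAL1, by 0.29 (adjusted p = 0.00039). Nfil3, the D-box repressor, rose from 21.6, 17.8 and 21.5 CPM to 26.5, 28.0 and 29.1 CPM, a log2 change of 0.47 (SE 0.083, adjusted p = 1.37e-05). Bhlhe41 differed by -0.01 (adjusted p = 0.839), and Rorb was not tested, with at most 8 counts in a library.

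Of 13 clock kinases, ubiquitin ligases and cofactors tested in MLTC-1 cells, 4 rose and 2 fell with hymeglusin, near the 48.3% of all genes called. They included Csnk1e, a casein kinase that phosphorylates period proteins, with a log2 change of 0.56, and Timeless at 0.53, and on the lower side Csnk1a1 at -0.33 and Prkaa2, a catalytic subunit of AMPK, at -0.29. Of 9 genes rhythmic in many tissues, 4 rose and 3 fell, with Nampt, the enzyme of NAD salvage, at -0.88 and Lonrf3 at 0.29. Of 14 immediate early and cAMP response genes, 9 rose and 1 fell, with Nr4a1 at 1.15. The summed level of that list was 362 to 377 CPM with DMSO and 488 to 520 CPM with hymeglusin, and the part of these signals in the members' values was not tested. The glucocorticoid response list had 2 of 7 higher and 4 lower, including Mt2 at -0.59 and Tsc22d3 at -0.55. Leydig markers summed to 9440 to 9840 CPM with DMSO and 6630 to 6780 CPM with hymeglusin, with 5 of 8 lower and 1 (Hsd3b6) higher. Their relation to the members was not tested.

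In primary cells the period genes and Clock were lower at 24 months. Of the 10 members, 4 passed at an adjusted p of 0.05, all lower (Per1, Per2, Per3 and Clock), against 28.6% of the 16381 genes tested, 13.5% higher and 15.1% lower. The members' median log2 fold change was -0.98, against -0.01 over all genes. The groups' CPM did not overlap for any of the 10 members, 8 lower and 2 higher, against 73.8% of all genes, 37.9% lower and 35.9% higher. In bulk libraries, fewer cells of a type and less RNA per cell cannot be told apart.

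Per2 fell most. Its level was 45.5 and 35.3 CPM at 2 months, against 3.12 and 12.6 CPM at 24 months. As a ratio the 24-month replicates differed from each other by more than the 2-month ones, but not in CPM (SD 6.71 against 7.27). The log2 fold change was -2.34 (SE 0.57, adjusted p = 0.0191). Per3 was at 44.7 and 39.6 CPM and then at 5.63 and 14.9 CPM, a log2 change of -2.03 (SE 0.46, adjusted p = 0.0161). Per1 had replicates close to each other, at 58.3 and 66.3 CPM and at 32.8 and 32.1 CPM. Its log2 fold change was -0.94 (SE 0.31, adjusted p = 0.0485), at the edge of the threshold, and 10 of 16 other settings lost the call.

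Clock was at 80.2 and 75.4 CPM at 2 months, against 18.9 and 25.8 CPM at 24 months. The log2 fold change was -1.80 (SE 0.33, adjusted p = 0.00985). Cry1 was at 17.5 and 20.35 CPM and at 6.51 and 12.1 CPM, a log2 difference of -1.02 (SE 0.40, adjusted p = 0.0824). Cry2 was at 31.3 CPM in both 2-month libraries and at 14.3 and 19.2 CPM at 24 months, a log2 difference of -0.90 (SE 0.33, adjusted p = 0.0669). Neither cryptochrome passed, though both had groups apart. Tef, with 111 and 94.9 CPM against 45.6 and 61.1 CPM, did not pass either (log2 difference -0.95, SE 0.33, adjusted p = 0.0571).

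The REV-ERB pair and Dbp did not pass. Nr1d2 was at 83.2 and 73.1 CPM at 2 months, against 11.7 and 53.8 CPM at 24 months. It had the widest gap between 24-month replicates of any member, a log2 ratio of 2.2. Its log2 difference of -1.25 (SE 0.58, adjusted p = 0.128) did not pass, and it was -0.58 without 24-month replicate 1 and -2.79 without replicate 2. Nr1d1 was at 63.6 and 66.0 CPM and then at 80.7 and 80.5 CPM, a log2 difference of 0.31 (SE 0.31, adjusted p = 0.456). Dbp was at 49.9 and 44.4 CPM and at 66.9 and 62.5 CPM, a log2 difference of 0.46 (SE 0.31, adjusted p = 0.282). Both were higher in each 24-month library than in each 2-month library.

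**Figure D3:**
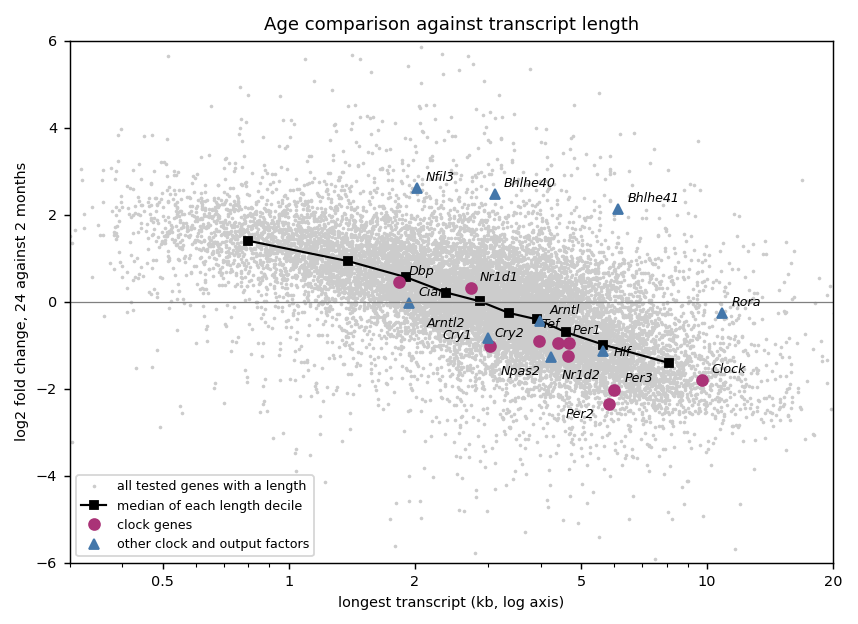
Log2 fold change between 24 and 2 months (vertical axis) against the longest transcript of each gene (horizontal axis, kb, log scale); grey points are 16025 tested genes with a length, of which 157 lie outside the axes, squares are medians of 10 length classes, circles are clock genes and triangles other clock factors. Medians run from 1.40 in the shortest class to -1.41 in the longest, Per2 and Per3 lie below them and Nfil3, Bhlhe40 and Bhlhe41 lie above.

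Among the members the age difference ran with transcript length. The short transcripts Dbp (1.84 kb) and Nr1d1 (2.72 kb) had positive values and the longest, Clock (9.74 kb), was among the most negative, and over the 10 members Pearson's r of log2 fold change with log2 length was -0.86, a description over genes that share 4 libraries. Genes of like length, within 10% of the member's, had a median of -1.56 for Clock, -0.73 for Per1, -1.03 for Per2, -1.05 for Per3 and 0.61 for Dbp. Clock at -1.80 lay near its like-length median, and Per2 at -2.34 and Per3 at -2.03 lay well below theirs. Cry1 at -1.02 also lay below its like-length median of -0.09, and with the length offset stood at -0.96 (adjusted p = 0.0861). With a length offset in the same test, 2 members were called, both lower, against 14.9% of all genes, 9.06% higher and 5.82% lower. Per2 was at -1.44 (SE 0.42, adjusted p = 0.0324) and Per3 at -1.06 (SE 0.34, adjusted p = 0.0479). Clock was at -0.29 (adjusted p = 0.553), Per1 at -0.24 (adjusted p = 0.631) and Dbp at -0.10 (adjusted p = 0.863), and the members' median was -0.42. With GC content added to the offset Per2 no longer passed (adjusted p = 0.128), and Cry1 and Per3 did.

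The number of members called with age, like that of all genes, depended on single libraries. It was 1 without 2-month replicate 1, 3 without 2-month replicate 2, 7 without 24-month replicate 1 and 9 without 24-month replicate 2. The number of all genes called moved the same way, with 841, 1453, 6671 and 9887 called in turn against 4685 with every library. Without 2-month replicate 1, Clock had an adjusted p of 0.0701 and Per3 of 0.0509. Scaling by total counts moved the median log2 fold change of all genes to -0.21 and left 1 member called, with Per2 at an adjusted p of 0.0648 and Per3 at 0.0558, and 1 fit of all 10 libraries called 9.

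**Figure D4:**
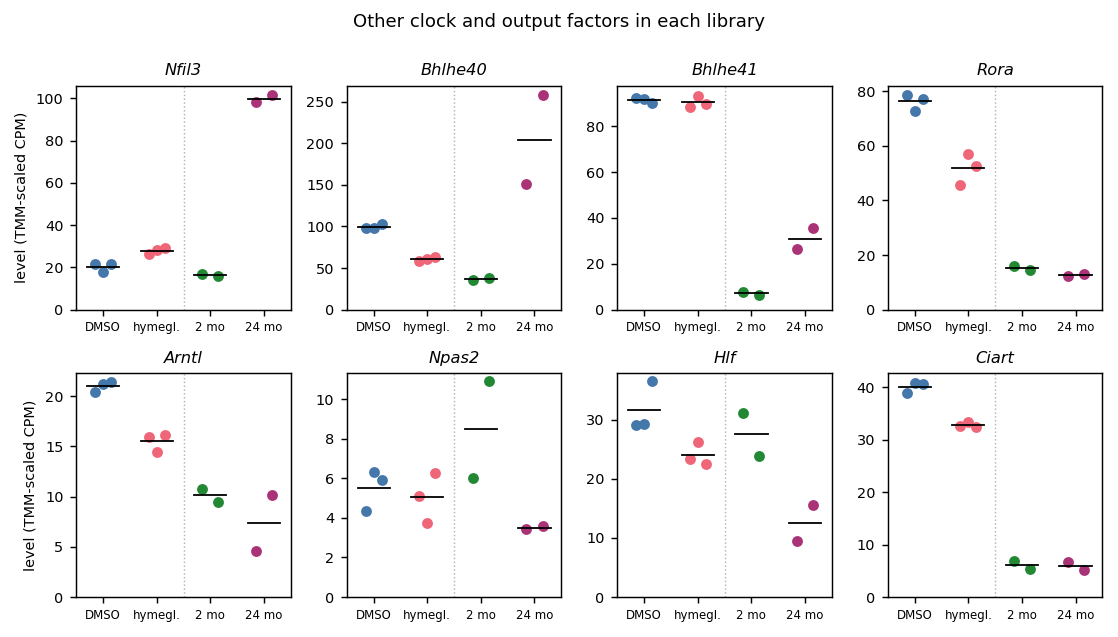
Level (vertical axes, TMM-scaled CPM) of 8 other clock and output factors in every library, with points for libraries and bars for group means, groups from left to right as MLTC-1 DMSO, MLTC-1 hymeglusin, 2 months and 24 months. Nfil3, Bhlhe40 and Bhlhe41 are higher in both 24-month libraries than in both 2-month libraries, and Arntl and Rora are lower with hymeglusin.

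Nfil3, Bhlhe40 and Bhlhe41 rose at 24 months, while Ciart did not pass. Nfil3 was at 16.9 and 15.9 CPM at 2 months, against 98.1 and 102 CPM at 24 months, a log2 change of 2.61 (SE 0.33, adjusted p = 0.00281), and 2.18 with the length offset (adjusted p = 0.000289). Bhlhe40 was at 36.1 and 37.5 CPM and then at 151 and 258 CPM, a log2 change of 2.47 (SE 0.37, adjusted p = 0.00604). Bhlhe41 was at 7.69 and 6.48 CPM and then at 26.6 and 35.4 CPM, a log2 change of 2.13 (SE 0.36, adjusted p = 0.00775). Nfil3 and Bhlhe40 were called in all 16 other settings, and Bhlhe41 lost its call without 2-month replicate 1 (adjusted p = 0.0533) or replicate 2 (adjusted p = 0.0666). Hlf fell by 1.13 on the log2 scale (adjusted p = 0.0489), lost its call in 9 of 16 other settings, and stood at -0.19 (adjusted p = 0.731) with the length offset. Arntl (-0.45, adjusted p = 0.462), Arntl2 (-0.83, adjusted p = 0.221) and Npas2 (-1.27, adjusted p = 0.061) did not pass. Ciart (-0.03, adjusted p = 0.967) did not pass, nor did Rora at -0.26 (adjusted p = 0.588), which turned to 1.39 (adjusted p = 0.0181) with the length offset.

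Of 14 clock kinases, ubiquitin ligases and cofactors, 2 fell with age, against 15.1% of all genes, Fbxw11 by 1.27 (adjusted p = 0.048) and Prkaa1 by 0.97 (adjusted p = 0.0498) on the log2 scale. With the length offset neither was called, and Nono was. Of 9 widely rhythmic output genes edgeR called 0, with 1 (Tspan4) at an unadjusted p under 0.05; limma called 0 and DESeq2 called 1 (Tspan4). In the glucocorticoid response list 3 of 8 rose, against 13.5% of all genes. Mt2 at 2.57 and Mt1 at 1.93 led these, and Fkbp5 fell by 1.85. With the length offset Mt2 was at 0.93 (adjusted p = 0.0468) and Fkbp5 at -1.46 (adjusted p = 0.00517), Mt1 (adjusted p = 0.1) and Dusp1 (adjusted p = 0.0597) were no longer called, and Sgk1 was (adjusted p = 0.0363). In the immediate early list 7 of 16 rose and 0 fell in edgeR, against 13.5% and 15.1% of all genes. At an unadjusted p under 0.05, 9 were higher and 0 lower, and DESeq2 called 9 and limma 8. Ier3 at 3.35 and Atf3 at 3.26 were among those called. With the length offset edgeR called 9 higher and 0 lower, against 9.06% and 5.82% of all genes. Fosb, Jun and Sik1 were then called and Dusp1 was not. The list's summed level was 5130 and 6200 CPM at 2 months, against 10700 and 15700 CPM at 24 months.

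Some markers of other cells moved with age too. Of all genes 13.5% were called higher and 15.1% lower, and 9.06% and 5.82% with the length offset. Spermatid markers summed to 1680 and 2140 CPM at 2 months, against 10100 and 5270 CPM at 24 months, with 7 of 8 higher, and 1 with the length offset. Macrophage markers summed to 21.9 and 22.0 CPM and then to 147 and 149 CPM, with 5 of 10 higher, and 4 with the length offset. Most of the 24-month sum was Cd14, at 7.73 to 8.96 CPM and then at 90.5 to 103 CPM. Adgre1, Cd68, Csf1r, Mrc1 and Cx3cr1 were not called. Adgre1 lay lower, at 0.573 to 0.883 CPM and then at 0.249 to 0.407 CPM. Stroma markers summed to 392 and 382 CPM and then to 67.8 and 139 CPM, with 2 of 3 lower, without and with the length offset. Spermatogonia and spermatocyte markers summed to 178 and 268 CPM and then to 111 and 206 CPM. Of these 7 markers edgeR called 0, without or with the length offset. Without it, 0 of 4 endothelium, 1 of 7 Sertoli (Cst9) and 1 of 3 peritubular myoid markers (Acta2) were called, both higher. With it, Pecam1, Dhh and Acta2 of these lists were called higher. No marker of the spermatid or macrophage lists was at 0 in a 2-month library. Leydig markers summed to 20900 and 17900 CPM and to 26100 and 17200 CPM. Of these 8 markers Insl3 was called higher and Lhcgr lower, and neither was called with the length offset. Insl3 was at 994 to 1110 CPM at 2 months and 1830 to 5167 CPM at 24 months. Lhcgr was at 603 to 746 CPM and then at 207 to 273 CPM. The part of other cells and of the immediate early genes in the members' age differences was not tested.

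MLTC-1 cells with DMSO differed from 2-month primary cells in most members. Here 8 of 10 passed, 4 higher and 4 lower in MLTC-1, against 82.8% of the 16092 genes tested (34.4% higher, 48.5% lower), a share near that of the members. Scaled over these 5 libraries alone, the groups' CPM did not overlap for 9 of the 10, of which 5 were higher, against 89.4% of all genes, 37.7% higher and 51.7% lower. Nr1d2, whose groups overlapped on the scale of all 10 libraries, was apart on this one. Cry2 differed most, at 88.9 to 104.7 CPM in the line and 31.5 and 33.5 CPM in primary cells on the common scale, a log2 change of 1.56 (SE 0.091, adjusted p = 3.77e-07). Tef was higher by 0.86 (adjusted p = 1.89e-06), Clock by 0.81 (adjusted p = 1.78e-06) and Per2 by 0.51 (adjusted p = 0.00127) on the log2 scale. Per3 (-0.40, adjusted p = 0.00168) and Per1 (-0.30, adjusted p = 0.0178) were lower. Per1 lost its call with the length offset (-0.15, adjusted p = 0.157), with the replicate block and length offset (adjusted p = 0.119), without DMSO replicate 1 (adjusted p = 0.0587) and without 2-month replicate 2 (-0.14, adjusted p = 0.128). Cry1 (0.06, adjusted p = 0.679) and Nr1d2 (0.07, adjusted p = 0.347) did not pass, but with the length offset both were called higher in MLTC-1, Cry1 at 0.44 (adjusted p = 0.00731) and Nr1d2 at 0.22 (adjusted p = 0.0169).

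Dbp at -0.47 (adjusted p = 0.000449) and Nr1d1 at -0.38 (adjusted p = 0.00371) were called lower in MLTC-1, but with the length offset Dbp was at 0.28 (adjusted p = 0.0101) and Nr1d1 at 0.13 (adjusted p = 0.225), and the split became 7 higher and 1 lower, against 85.1% of all genes called, 46.3% higher and 38.7% lower. The median log2 fold change of all genes was -0.27, and 0.17 with the offset, so these signs are relative to that shift. Arntl was higher in MLTC-1 by 0.90 (adjusted p = 0.000103) on the log2 scale. Npas2 was lower (-0.79, adjusted p = 0.0371), a call lost with the length offset (adjusted p = 0.0693), under limma (0.0812), in 1 fit of all 10 libraries (0.0542), and without DMSO replicate 1 (0.117), DMSO replicate 3 (0.0656) or 2-month replicate 2 (-0.21, adjusted p = 0.435). Arntl2 (0.00, adjusted p = 0.993), Hlf (0.05, adjusted p = 0.72) and Nfil3 (0.15, adjusted p = 0.299) did not pass, and Nfil3 was called at 0.84 (adjusted p = 0.000125) with the length offset. Ciart, Bhlhe40, Bhlhe41 and Rora were higher in MLTC-1 by 2.58, 1.28, 3.54 and 2.18 on the log2 scale. Timeless was higher by 4.68, and the immediate early genes Egr1 and Fos were lower at -7.60 and -9.45. Culture, solvent, tumour origin, any strain difference, preparation and other cells in the primary preparations cannot be told apart in this comparison. Spermatid markers summed to 1680 and 2140 CPM at 2 months and to 0.208 to 0.407 CPM with DMSO. Markers of macrophages, stroma, spermatogonia and spermatocytes also summed lower in the line, while those of Sertoli cells, endothelium and peritubular myoid cells summed higher. Their part in the members' differences was not tested. The comparison shares its DMSO libraries with the hymeglusin comparison and its 2-month libraries with the age comparison.

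Some member counts may include reads of a neighbour. In the annotation, exons of Nr1d1 overlap those of Thra on the opposite strand over 263 of 3077 bases, and those of Dbp overlap Sphk2 over 539 of 2993 bases. Exons of Cry2 overlap D930015M05Rik over 295 of 6320 bases, and those of Tef overlap Gm17597 over 193 of 7867 bases, also on the opposite strand. The strand setting of the counting is not given in the sources used here, so reads from these stretches cannot be told apart. With hymeglusin Thra differed by -0.12 (adjusted p = 0.128) and Sphk2 by 0.07 (adjusted p = 0.339), and with age by -0.55 (adjusted p = 0.212) and -0.23 (adjusted p = 0.632) on the log2 scale. Between MLTC-1 DMSO and 2-month cells edgeR called Thra lower (-0.58, adjusted p = 7.19e-05) but not Sphk2 (-0.09, adjusted p = 0.237). There Gm17597 was higher (1.8, adjusted p = 0.0122) and D930015M05Rik did not pass (0.55, adjusted p = 0.174). With age D930015M05Rik was at -2.64 (adjusted p = 0.0745). The part of these neighbours in the members' values was not tested.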

How the data were processed

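Raw counts per gene symbol were analysed as the authors deposited them, whole numbers that had not been normalized. Per the submitters' processing notes, reads were handled with featureCounts 2.0.6, HISAT2 2.2.1, fastp 0.23.4 and FastQC 0.12.1 on mm10; options, strand setting and annotation were not given in the sources used here. RNA came from an RNeasy kit and libraries from NEBNext Ultra RNA kits, per the labels' protocols.

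Groups and replicate numbers came from the labels. Counts were filtered with filterByExpr (at least 10 counts, total at least 15), scaled by TMM and tested two-sided with the robust quasi-likelihood test of edgeR 4.0.16 in R 4.3.3, with Benjamini-Hochberg adjustment over all genes tested and a threshold of 0.05. The 6 MLTC-1, the 4 primary cell and the 5 DMSO and 2-month libraries were fitted apart. The procedure was run on simulated counts with known fold changes. These held no transcript length trend, so they could not test its effect on the calls. SE is the log2 fold change over the root of the F statistic. The length offset is a loess curve (span 0.3) of each library on the longest GENCODE M21 transcript. The members, gene lists and markers were chosen with earlier results of these data known. Every member and every other core and secondary loop gene is named, except 1 gene that is not reported here; of other lists, up to 2 genes a direction by smallest adjusted p. Alternatives were DESeq2 1.42.0, limma 3.58.1, other scalings, filters and offsets, the replicate block, and leaving out each library. Depth was 17407456 to 34787330 counts, and every column of values belonged to a sample. Counts of replicates differed by more than sampling noise (chi-square per degree of freedom 3.44 to 134), so each library was 1 sample.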

Additional observations from a re-analysis of the deposited data

How the results depend on the processing

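With hymeglusin the number of clock genes called, 5 in the reported analysis, was 3 to 6 when each library was left out (3 without DMSO replicate 2 or without hymeglusin replicate 1) and 0 in 1 fit of all 10 libraries, where 934 of all genes were called in place of 6218. With age it was 4, and 1 under total counts, 7 with no count filter, 9 in 1 fit of all 10 libraries, 2 under each of the length offset, the length and GC offset, and the replicate block with length offset; leaving out each library gave 1 to 9. All genes called with age numbered 4685, against 1832 under total counts, 8868 in 1 fit of all 10 libraries, 2437 and 2756 with the length offset without and with the block, and 841 to 9887 with a library left out. Leaving out 1 primary library leaves 1 in its group, which is then assumed to vary like the other pair. Between MLTC-1 and 2-month cells the count of 8 stayed at 6 to 10. The sign of Rora with age turned to 1.39 with the length offset, 1.49 once GC was added and 1.36 with the block and length offset. Between the sources Nr1d1 turned to 0.13 and 0.05 and Dbp to 0.28 and 0.24 with the length offset without and with the block, and Arntl2 to 0.59 with length and GC offset. The cause of these shifts, and of those from leaving out a library, was not tested. Deviations of same-numbered samples from their group means had correlations of -0.02 to 0.03 in MLTC-1 and -0.09 in primary cells. With 2 libraries in a group the deviations mirror each other, so the primary values differ only in sign. So few libraries cannot exclude that a number marks a shared day or batch. DMSO replicate 1 correlated best with hymeglusin replicate 2. With the replicate block 6, 4 and 8 members were called with hymeglusin, with age and between sources. Each member had at least 46 counts in every library.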

Other observations

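Across the 10 libraries, which share depth, source and length differences, the log2 levels of some members ran close together as a description. Pearson's r was 0.98 for Clock and Tef, 0.97 for Cry2 and Tef and 0.95 for Per2 and Per3, and it was -0.98 for Dbp and Cry2 and -0.92 for Nr1d1 and Tef. Among 10205 genes whose mean log2 CPM reached 2, the pattern most like Clock was that of Ctnnd1 and Mtmr3 (r = 0.999), that most like Per2 was Usp9x and Sf3b1 (r = 0.998), and that most like Per3 was Btbd3 and Dhx33 (r = 0.996). For Cry2 it was Igf2r and Map1b (r = 0.999), for Tef Api5 (r = 0.999) and Ptbp3 (r = 0.998), and for Nr1d2 Mtrex (r = 0.997) and Morc3 (r = 0.996). For Dbp it was Hddc2 (r = 0.994), for Nr1d1 Entr1 (r = 0.976) and for Per1 Clip1 (r = 0.978). No p is given for these values.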
